A study of Mus musculus with 5 samples.

Results

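The genes described here are those of MHC class II antigen presentation. They comprise the 3 classical chains H2-Aa, H2-Ab1 and H2-Eb1, the DM chains H2-DMa, H2-DMb1 and H2-DMb2, the DO chains H2-Oa and H2-Ob, the invariant chain Cd74 and the transactivator Ciita. They were chosen by name, with earlier results of these data known. For each gene the probe set that names it alone was used, and where several existed the one of highest mean. Of the 10 genes, 8 had such a probe set, among 19938 genes in all. H2-DMb1 and H2-DMb2 share 1 probe set that names both, so their signals cannot be told apart, and that set is given as a shared value. All 8 genes passed the filter used for testing, a mean log2 intensity of at least 6, as did 6603 genes in all. H2-Oa lay nearest to that limit, at 6.62.

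CD45+ cells (leukocytes) had been sorted from the pancreas of 5 WT NOD females at 10 weeks, and each mouse has 1 array. The NOD strain develops autoimmune diabetes spontaneously. The labels give each mouse an MRI value, T2 (a relaxation time), and the study set gene expression against that signal. T2 was lowest in mouse 5 and highest in mouse 1, at 28.98, 30.02, 32.77, 35.24 and 35.3 ms from mouse 5 to mouse 1, and values of all mice are given in that order. All mice form 1 group, with no untreated or non-diabetic strain beside them, and the labels name no batch.

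Class II molecules present peptides from the endosomal pathway to CD4+ T cells, and B cells, dendritic cells and activated macrophages are their main carriers. An alpha and a beta chain assemble with the invariant chain, which blocks the groove. Endosomal proteases then degrade it, and DM exchanges the remaining fragment for antigenic peptide. DO, found mainly in B cells and some dendritic cells, restrains DM. CIITA, which does not bind DNA itself, switches on these genes through factors bound at the X and Y boxes of their promoters. In NOD mice the I-A molecule, built from H2-Aa and H2-Ab1, is a main genetic factor of diabetes. The strain has a defective H2-Ea gene and so makes no I-E molecule, although the partner chain H2-Eb1 is intact.

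The X and Y boxes are shown because they are the promoter elements through which CIITA acts on class II genes. RefSeq start sites of the mouse reference strain (GRCm38.p6) were available for 7 of the 10 genes, and those of H2-Ab1, Cd74 and Ciita were not used here. The window ran from 250 bases before to 50 bases after the start. The letters GNAAC, part of the X box, followed after 20 to 35 bases by ATTGG, the Y box read on the gene's strand (CCAAT on the other), were searched on both strands. This spacing was chosen with these sequences in view. It was found for 5 of the 7 genes and in 2.67% of 32851 windows of the same length. CCAAT alone was found for all 7 genes and in 37.4% of windows, and GNAAC alone for all 7 and in 84.8%. The printed stretches come from the reference strain and not from NOD, and a match describes letters only. Capitals mark the letters of both motifs.
H2-Aa, chr17:34287855-34287916, minus strand: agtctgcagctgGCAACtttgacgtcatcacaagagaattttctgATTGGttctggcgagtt
H2-Eb1, chr17:34305764-34305824, plus strand: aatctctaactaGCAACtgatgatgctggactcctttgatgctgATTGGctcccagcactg
H2-DMb1, chr17:34153085-34153146, plus strand: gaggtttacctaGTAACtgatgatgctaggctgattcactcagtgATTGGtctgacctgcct
H2-Oa, chr17:34092291-34092352, plus strand: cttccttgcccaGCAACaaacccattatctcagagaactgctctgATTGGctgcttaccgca
H2-Ob, chr17:34238806-34238864, plus strand: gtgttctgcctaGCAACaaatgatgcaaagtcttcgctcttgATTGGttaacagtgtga
The gap between the motifs was 28 bases in H2-Aa, H2-DMb1 and H2-Oa, 27 in H2-Eb1 and 25 in H2-Ob. H2-DMa and H2-DMb2 did not hold the pair of motifs in this window.

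The values that follow are intensities on the authors' linear scale, made with RMA, a method that corrects background, equalises the arrays and summarises the probes of a set. With 5 arrays the precision of each value is limited, and levels are compared between mice within a probe set. Log2 ratios of a pair of probe sets on the same array are given for how they differ between mice, and their size has no meaning of its own. NOD class II alleles differ from those of the reference strain, and how well the probes match them was not tested. Ptprc, which encodes CD45, lay between 1962 and 2357 on the 5 arrays. B cell, T cell and macrophage markers were all present. Of the genes tested 38.2% had equal values on 3 or more arrays, which lowers their residual spread.

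The class II genes differed between mice by modest amounts. All 8 were higher in mouse 1 than in mouse 2, the 2 mice of nearly equal T2. Mouse 2 was lowest for 6 of the 8 genes and for 23.6% of all genes tested. For 4 of the 8 mouse 1 was highest and mouse 2 lowest, as for 4.85% of all genes tested. The SD over the 5 mice ran from 0.05 for H2-Oa to 0.35 for Ciita on the log2 scale, against a median of 0.105 over all genes tested. The median ratio of the highest to the lowest mouse was 1.37 for the 8 genes and 1.2 for all genes tested.

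H2-Aa, the alpha chain of I-A, read 1717, 1725, 1723, 1437 and 1938 from mouse 5 to mouse 1 (log2 10.73 ± 0.15, SD, n = 5). It was level in 3 mice, lower in mouse 2 and higher in mouse 1. H2-Ab1, its beta chain, read 1120, 1324, 1109, 943 and 1368 from mouse 5 to mouse 1 (10.18 ± 0.22). Unlike its partner chain, it stood high in mouse 4 as well as in mouse 1. The log2 ratio of H2-Aa to H2-Ab1 on the same array was 0.38 in mouse 4 and between 0.50 and 0.64 in the others.

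H2-Eb1, the beta chain of I-E, read 1703, 1668, 1589, 1282 and 1634 from mouse 5 to mouse 1 (10.61 ± 0.17). It was the member whose highest value was in mouse 5, and mouse 2 stood below the other 4. Its partner H2-Ea was listed at 10.0 in mice 5, 4, 3 and 1 and at 8.60 in mouse 2. These values lie at the dim end of the arrays, whose lower quartiles were between 9.70 and 9.95. H2-Eb2, a neighbouring class II beta gene that is no member, read 84.4, 114, 80.2, 84.7 and 98.2 from mouse 5 to mouse 1, so that mouse 4 was highest and mouse 1 next.

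Among the DM chains, H2-DMa, the alpha chain, read 178 in mice 5, 4 and 3, 162 in mouse 2 and 201 in mouse 1 (7.48 ± 0.11). Its value was equal on 3 arrays, and mice 2 and 1 lay on either side. The probe set shared by H2-DMb1 and H2-DMb2, the beta chains, read 1171, 1245, 977, 898 and 1421 from mouse 5 to mouse 1 (10.14 ± 0.27). It separated mice 5, 4 and 1 from mice 3 and 2.

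Of the DO chains, H2-Ob, the beta chain, read 303, 340, 249, 243 and 317 from mouse 5 to mouse 1 (8.17 ± 0.21). Again mice 5, 4 and 1 were above mice 3 and 2. H2-Oa, the alpha chain, was nearly flat, with 94.8 in mouse 5, 98.5 in mice 4 and 3, 95.7 in mouse 2 and 103 in mouse 1 (6.62 ± 0.05). The log2 ratio of H2-Ob to H2-Oa ranged from 1.34 in mouse 3 to 1.79 in mouse 4.

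Cd74, the invariant chain, read 3420, 3787, 2738, 2594 and 4257 from mouse 5 to mouse 1 (11.69 ± 0.30). Its highest value was 1.64 times its lowest, and the mice fell into the same upper and lower groups as for H2-Ob. Ciita, the transactivator, read 126, 197, 130, 146 and 215 from mouse 5 to mouse 1 (7.31 ± 0.35). It was high in mice 4 and 1 alone. Its lowest value was in mouse 5, as was that of H2-Oa, while Cd74 and the other chains were lowest in mouse 2. The log2 ratio of Ciita to H2-Ab1 was -3.15 in mouse 5 and -3.10 in mouse 3, against -2.75 to -2.67 in the others.

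**Figure D1:**
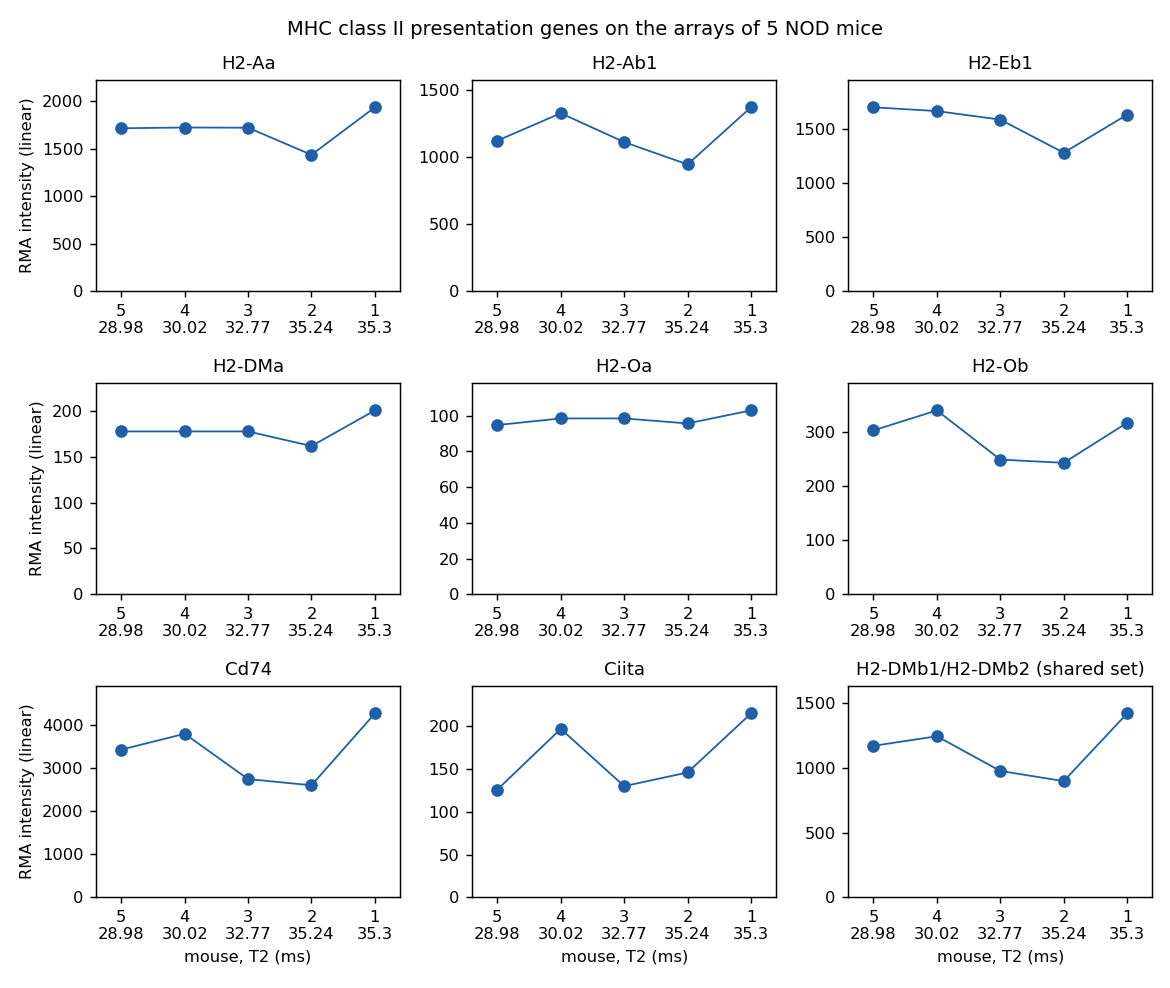
RMA intensity (linear axis from 0) of the 8 class II genes and of the probe set shared by H2-DMb1 and H2-DMb2, 1 point for each of the 5 mice. Mice stand in order of T2 (ms) at equal spacing. Every panel is higher at mouse 1 than at mouse 2, while H2-Oa is nearly flat between 94.8 and 103.

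None of the class II genes was called on T2. A line of log2 intensity on T2 was fitted to every gene with limma, and an adjusted p under 0.05 after Benjamini-Hochberg correction counted as called. It called 0% of the 6603 genes tested, and 5.29% fell under an unadjusted p of 0.05, none of the 8 members among them. Of the members 5 had a negative and 3 a positive slope, where 28.9% of all genes were positive, with a median of -0.010 log2 per ms, against -0.0074 over all genes. The largest moderated t was that of H2-Eb1, with -0.037 ± 0.022 log2 per ms (SE, n = 5; limma adjusted p = 0.828).

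The intervals show which sizes these 5 mice could not separate from 0. For H2-Aa the fitted ratio of the highest to the lowest T2, 6.32 ms apart, had a 95% interval from 0.70 to 1.35. For H2-Ab1 the interval was 0.59 to 1.5, for H2-Ob 0.57 to 1.29 and for Cd74 0.48 to 1.75. Ciita had the widest, 0.57 to 2.42, and H2-Oa the narrowest, 0.94 to 1.14. The slopes of H2-Aa, H2-Ab1 and Cd74 turned positive without mouse 2, that of H2-Ab1 also without mouse 4. Those of H2-DMa and Ciita turned negative without mouse 1, that of Ciita also without mouse 5.

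Between the mice of nearly equal T2, all 8 members were higher in mouse 1 than in mouse 2, as were 45.2% of all genes tested, with a median log2 difference of 0.41, against 0 over all genes. The ratio of mouse 1 to mouse 2 was 1.64 for Cd74, 1.48 for Ciita, 1.45 for H2-Ab1, 1.35 for H2-Aa and 1.08 for H2-Oa. The shared DM beta set, which is not counted among the 8, had 1.58. A ratio of at least 1.2 was reached by 7 members and by 11.1% of all genes. That limit was set after the values had been seen, and H2-DMa, at 1.24, lay just above it. At an excess of 25%, the limit used first, 6 members and 8.59% of all genes passed. For 4 members mouse 1 was highest and mouse 2 lowest of the 5, a pattern of 4.85% of all genes. With 1 mouse at each value these differences have no replicate check.

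B cell markers were also higher in mouse 1 than in mouse 2, in 15 of 15 genes past the filter. Ms4a1, which encodes CD20, read 913, 839, 689, 565 and 1171 from mouse 5 to mouse 1. Cd79a and Cd79b, the signalling chains of the B cell receptor, read 1158 and 972 in mouse 1, against 747 and 541 in mouse 2. The mean log2 intensity of the 15 markers was 8.66, 8.64, 8.06, 8.09 and 8.95 from mouse 5 to mouse 1. Mice 5, 4 and 1 thus stood above mice 3 and 2, as for Cd74, H2-Ob and the shared DM beta set.

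The slope of each gene on that mean was fitted across the table, with the marker genes themselves left out. All 8 members had a positive slope, as did 65.1% of the 6588 genes tested, and the members' median was 0.38 log2 per log2 unit, against 0.053 over all genes. limma called none of the members and 0% of all genes at an adjusted p under 0.05. An unadjusted p under 0.05 was reached by 2 members, Cd74 and H2-Ob, both with positive slopes, and by 6.71% of all genes (5.48% with a positive slope).

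Cd74 had a slope of 0.76 ± 0.092 (95% interval 0.50 to 1.02; limma adjusted p = 0.36). H2-Ob had 0.49 ± 0.13 (0.13 to 0.85; limma adjusted p = 0.593). The shared DM beta set, added to the table as 1 more row, had 0.66 ± 0.086 (0.42 to 0.91; limma adjusted p = 0.368). These intervals do not include 0, but none of the sets passed after correction over all genes, and the intervals are not corrected. H2-Ab1 had a slope of 0.45 (-0.010 to 0.92), Ciita 0.60 (-0.37 to 1.57), H2-Aa 0.30 (-0.082 to 0.68), H2-Eb1 0.28 (-0.19 to 0.75) and H2-DMa 0.22 (-0.038 to 0.49). H2-Oa, at 0.063 (-0.10 to 0.23), turned negative without mouse 1. In sorted CD45+ cells measured in bulk, more B cells and more class II RNA in each cell cannot be told apart.

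**Figure D2:**
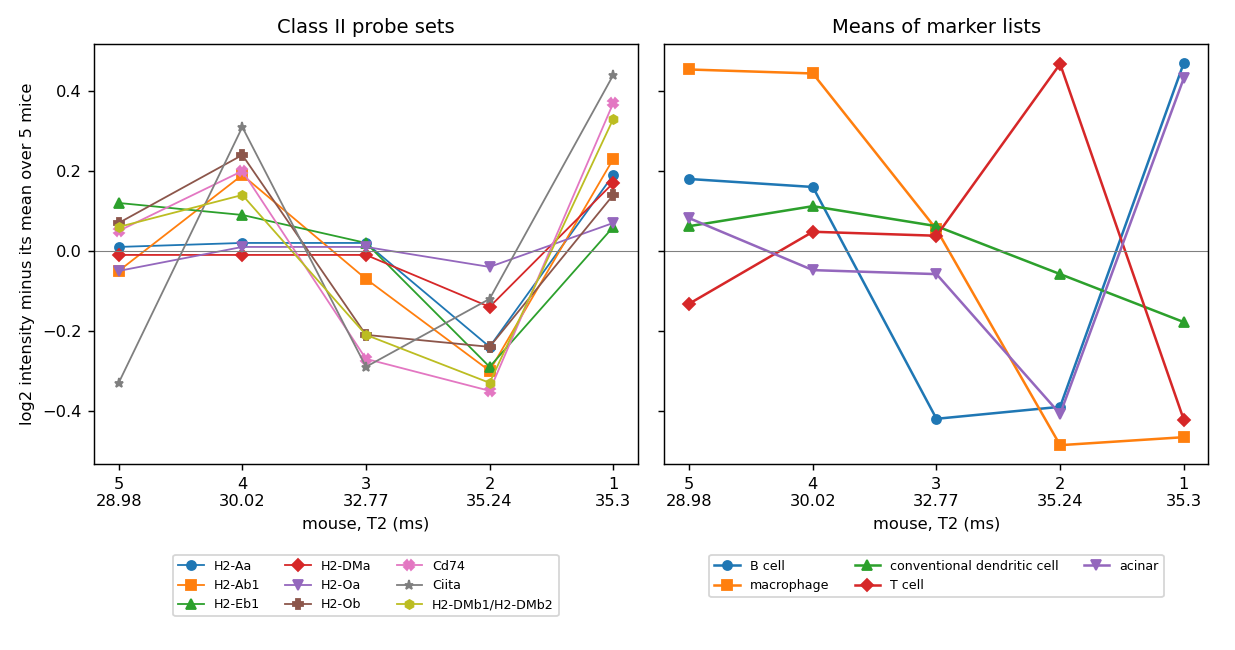
Log2 intensity minus its mean over the 5 mice, for the class II probe sets (left) and for the means of 5 marker lists (right), with mice in order of T2 at equal spacing. Cd74, H2-Ob and the shared DM beta set are higher in mice 5, 4 and 1 than in mice 3 and 2, as is the B cell mean, while the macrophage mean is lower at higher T2 and the T cell mean is highest in mouse 2.

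Other markers moved between mice 1 and 2 as well. All 4 acinar genes past the filter, transcripts of exocrine pancreas, were highest in mouse 1 and lowest in mouse 2, with a list mean of 7.59 in mouse 1 and 6.75 in mouse 2 and a range of 7.10 to 7.24 in the others. All 4 plasma cell genes past the filter had the same order, with means of 7.70 in mouse 1 and 6.94 in mouse 2. T cell genes ran the other way, lower in mouse 1 than in mouse 2 in 10 of 10, with means of 8.41 in mouse 1 and 9.30 in mouse 2. No value on the arrays was 0, the lowest of any probe set being 2.87, so a value above 0 is no check of a marker's presence.

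The acinar mean was also used as a second covariate, an alternative chosen after seeing the data. Cd74 then had a slope on the B cell mean of 0.69 (95% interval 0.078 to 1.31). H2-Ob had 0.65 (-0.15 to 1.46) and Ciita 0.73 (-1.65 to 3.10). H2-Aa, H2-DMa and H2-Oa had slopes of -0.068, -0.031 and -0.037, and H2-Eb1 and H2-Ab1 had 0.047 and 0.24. In that fit 2 residual degrees of freedom remain for each gene.

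Mice 4 and 3 had nearly equal acinar means, at 7.11 and 7.10, and differed in T2, at 30.02 and 32.77 ms. The B cell mean was 8.64 in mouse 4, against 8.06 in mouse 3. With 1 mouse on each side these differences have no replicate check. Ciita was 1.51 times, Cd74 1.38 times and H2-Ob 1.36 times as high in mouse 4 as in mouse 3. Of the 8 members with a probe set of their own, these 3 reached a ratio of 1.2, as did 14.1% of all genes. The same 3 members and 8.89% of all genes passed at an excess of 25%. H2-Ab1 had a ratio of 1.19 and H2-Eb1 of 1.05. The shared DM beta set, which is not counted among the 8, had 1.27. The log2 differences of H2-Aa, H2-DMa and H2-Oa between these mice rounded to 0. Macrophage genes differed too, with a list mean of 8.82 in mouse 4 and 8.43 in mouse 3. Neutrophil genes differed most among the marker lists, all 5 past the filter being lower in mouse 4, with a list mean of 6.50 in mouse 4 and 8.63 in mouse 3. The part of either list, of the B cell markers or of T2 in these ratios was not tested.

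**Figure D3:**
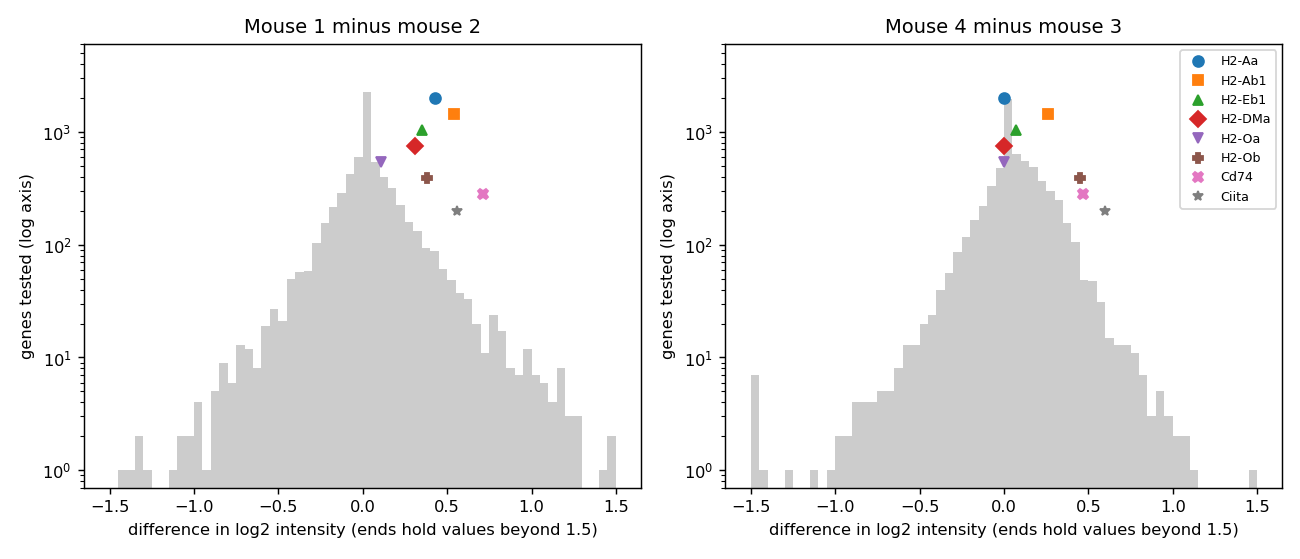
Difference in log2 intensity between mouse 1 and mouse 2 (left) and between mouse 4 and mouse 3 (right). Grey bars count all 6603 genes tested on a log axis, and symbols mark the 8 class II genes at heights chosen only to keep them apart. Cd74 lies at 0.71 and 0.47 and Ciita at 0.56 and 0.60, while H2-Aa lies at 0.43 on the left and at 0 on the right.

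The mean of the macrophage markers was lower in the mice of higher T2, while single markers differed in how they ran. Adgre1, an adhesion-type surface receptor of macrophages, read 698, 672, 505, 274 and 270 from mouse 5 to mouse 1. C1qa, C1qb and C1qc, the chains of complement C1q, were likewise lower in mice 2 and 1 than in the other 3. The mean of 11 macrophage genes was 8.83, 8.82, 8.43, 7.89 and 7.91 from mouse 5 to mouse 1. The near equality in mice 1 and 2 was that of the mean, to which 5 of the 11 genes contributed a higher value in mouse 1. Csf1r, the receptor of a macrophage growth factor, read 625 in mouse 1 and 453 in mouse 2, and Sirpa read 527 and 372 in the same mice. The 4 core markers, Adgre1 and the C1q chains, were lower in mouse 1, with a mean of 7.24 in mouse 1 and 7.49 in mouse 2.

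The macrophage mean itself had a slope of -0.16 ± 0.016 log2 per ms on T2 (SE, n = 5). Relations to T2 and to macrophage markers therefore cannot be told apart in these mice. On the macrophage mean, 5 members had a positive and 3 a negative slope, and 63.7% of all genes were positive. limma called none of the 8 members and 0.0152% of the 6592 genes tested, which was Itgam alone. An unadjusted p under 0.05 was reached by none of the members and by 4.76% of all genes. The members' median slope was 0.082 log2 per log2 unit, against 0.036 over all genes. H2-Eb1 had the largest moderated t, with a slope of 0.24 ± 0.14 (95% interval -0.14 to 0.63; limma adjusted p = 0.908). Cd74 had 0.11 (-0.82 to 1.04) and Ciita -0.20 (-1.26 to 0.85), so the 5 mice set only wide bounds on a relation to macrophages.

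**Figure D4:**
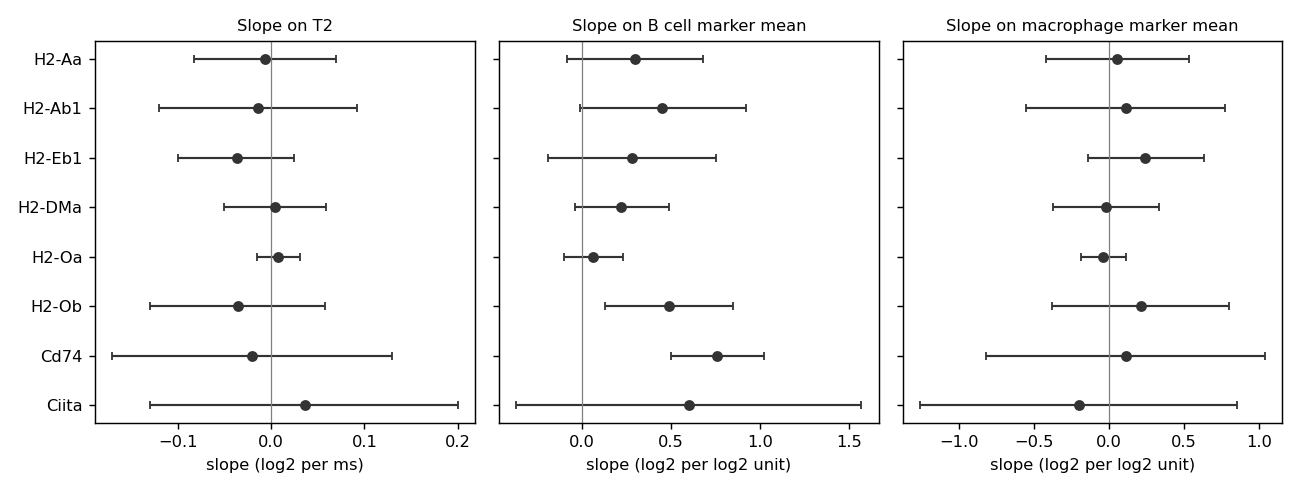
Slopes of the 8 class II genes on T2 (log2 per ms), on the B cell marker mean and on the macrophage marker mean (log2 per log2 unit), each with its 95% interval from limma (n = 5). The slopes on the B cell mean are all positive, and those of Cd74 and H2-Ob have intervals above 0, while every interval on T2 and on the macrophage mean includes 0.

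Dendritic cells are the other main carriers of class II. The 7 conventional dendritic cell genes past the filter had means between 7.66 in mouse 1 and 7.95 in mouse 4. Itgax, which encodes CD11c, was 103 in 4 mice and 106 in mouse 3. Xcr1 and Clec9a, markers of cross-presenting dendritic cells, lay under the filter on average. Plasmacytoid dendritic cell genes had means between 6.26 in mouse 1 and 6.76 in mouse 5. In both lists the mean was lowest in mouse 1. Single conventional dendritic cell genes did not share that order. Fscn1 was lowest in mouse 1, at 113, but Cst3 and Cd209a in mouse 2, at 2199 and 110. Flt3 was lowest in mouse 5, at 61.6, and Ccr7 in mouse 3, at 456.

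The list of transcription factors held those of the X and Y boxes along with others such as Irf1, Irf8 and Spi1, regulators of interferon responses and of myeloid and B cells. Its 9 genes past the filter had a list mean between 7.42 and 7.52. Of the 9, Nfya, a subunit of the factor that binds the Y box, was listed at 150 on every array, so its slope carries no sign. Of the other 8 genes, 2 had a positive and 6 a negative T2 slope, and 7 had a positive slope on the B cell mean. Over all genes tested, 67.9% were negative on T2 and 65.1% positive on the B cell mean. None was called on either, against 0% of all genes. Rfx5, the large subunit of the X box factor, read 76.0, 86.4, 58.3, 71.7 and 84.6 from mouse 5 to mouse 1. It was highest in mice 4 and 1, as Ciita was. Creb1, which binds within the X box, had a slope of 0.22 ± 0.057 on the B cell mean (limma adjusted p = 0.575).

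Interferon gamma induces Ciita in macrophages and many other cells. Of 8 genes of its response past the filter, 6 had a positive and 2 a negative T2 slope, and 7 had a negative slope on the B cell mean, with none called. Over all genes 28.9% were positive on T2 and 65.1% on the B cell mean. The list mean was 7.59, 7.88, 7.76, 7.96 and 7.69 from mouse 5 to mouse 1. It was highest in mouse 2, where 6 class II genes were lowest and the T cell mean was also highest, at 9.30. Single genes of the list differed. Irf1, Irgm1, Socs1 and Psmb8 were highest in mouse 2, Nlrc5 and Tap1 in mouse 4 and Psmb9 in mouse 3. Gbp3 was lowest in mouse 2, at 114. Nlrc5, the transactivator of class I genes, read 436, 672, 410, 633 and 453 from mouse 5 to mouse 1. Unlike Ciita it was high in mouse 2 and not in mouse 1.

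Genes of endosomal processing, which degrade antigen and the invariant chain, all had a negative T2 slope, as did 67.9% of all genes tested. Of these 8 genes 4 had an unadjusted p under 0.05 and none was called, where all genes gave 5.29% and 0%. Lgmn, an asparaginyl endopeptidase that the macrophage list also holds, read 519, 530, 368, 297 and 267 from mouse 5 to mouse 1. Its T2 slope was -0.15 ± 0.015 (limma adjusted p = 0.254). Ctsb, the protease cathepsin B, had -0.087 ± 0.023 (limma adjusted p = 0.668), and Ctsl, cathepsin L, had -0.18 ± 0.054 (limma adjusted p = 0.828).

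Ctss, cathepsin S, is the protease that trims the invariant chain in B cells and dendritic cells. It read 1050, 871, 975, 772 and 860 from mouse 5 to mouse 1, with a T2 slope of -0.042 ± 0.021 (limma adjusted p = 0.828). Ctsh and Ifi30, a thiol reductase that opens disulfides of antigens, were lowest in mouse 2, at 288 and 755. With Ctss and Ctsz, 4 of the 8 processing genes were lowest in that mouse. On the macrophage mean all 7 of these genes outside the marker list had a positive slope. Of these, 3 had an unadjusted p under 0.05 and none was called. All genes gave 63.7% positive, 4.76% under that p and 0.0152% called. As the macrophage mean fell with T2, this fit and that on T2 are not separate results. On the B cell mean 5 of 8 were positive, against 65.1% of all genes. Ctsh and Ifi30 had nearly the same values in mouse 1, at 375 and 906, as in mouse 5, at 375 and 901.

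**Figure D5:**
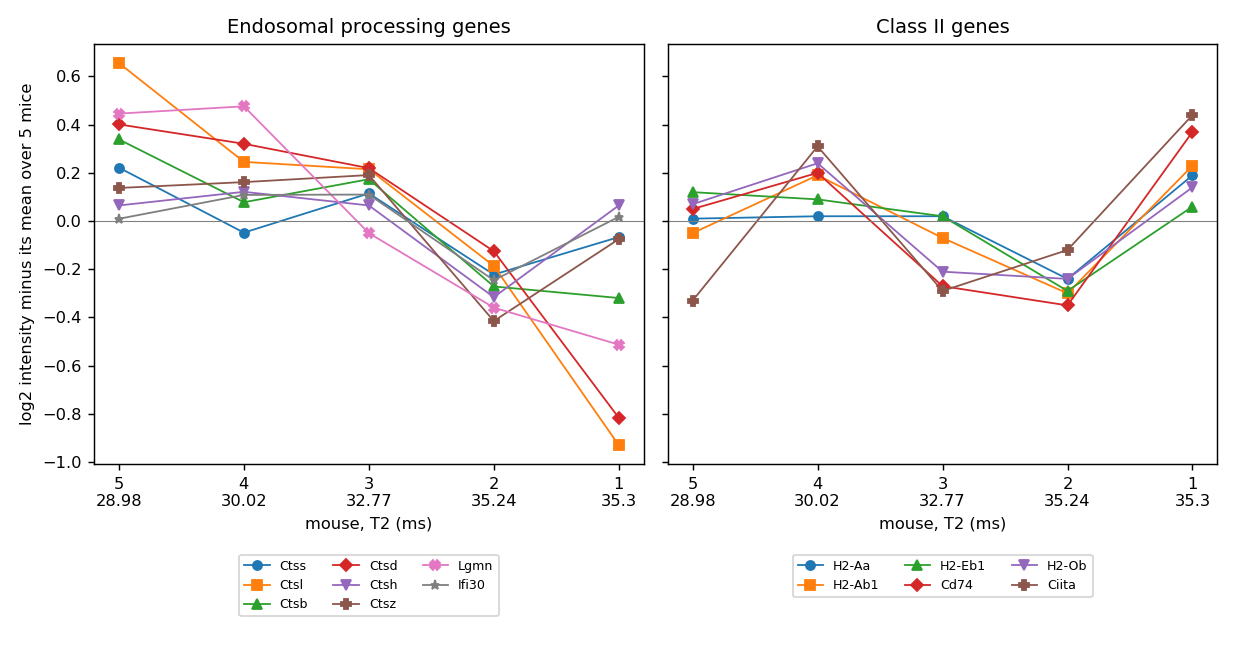
Log2 intensity minus its mean over the 5 mice for the 8 endosomal processing genes (left) and for 6 class II genes (right), on the same axis, with mice in order of T2 at equal spacing. Ctsl, Ctsd, Ctsb and Lgmn are lowest in mouse 1, where Cd74, H2-Ab1 and Ciita are highest. Ctss, Ctsh, Ctsz and Ifi30 are lowest in mouse 2, as Cd74 and H2-Ab1 are.

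The remaining genes of the pathway were few past the filter. Marchf1, the ligase that removes class II from the surface, read 85.9 in mice 5, 4 and 3, 73.0 in mouse 2 and 99.8 in mouse 1. Cd83, which opposes that ligase, read between 171 in mouse 3 and 236 in mouse 4. Icosl, a costimulatory ligand of B cells and other presenting cells, had a slope of 0.65 ± 0.16 on the B cell mean (limma adjusted p = 0.567). Its values were 149, 181, 116, 133 and 181 from mouse 5 to mouse 1. It was highest in mice 4 and 1, as Ciita was.

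On the T cell side, Lag3, an inhibitory receptor that binds class II, had a slope of -0.72 ± 0.13 on the B cell mean (limma adjusted p = 0.438), the largest moderated t among the pathway genes in that fit. It read 62.1, 71.7, 82.0, 85.9 and 51.9 from mouse 5 to mouse 1. Cd4, the coreceptor for class II, read 291, 317, 286, 447 and 221 from mouse 5 to mouse 1. Both receptors were highest in mouse 2 and lowest in mouse 1, opposite to 4 of the class II genes. That order was not particular to them. The mean of the T cell list, which holds Cd4, was also highest in mouse 2, at 9.30, and lowest in mouse 1, at 8.41.

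The genes with profiles most like H2-Ab1, H2-Ob and Ciita were sought among all genes tested, by the root mean square difference of log2 intensity centred on each gene's mean over the 5 mice. For H2-Ab1 they were Atf6b (0.0542), Sipa1 (0.0570), Zfp36l1 (0.0578), Ptger1 (0.0725) and Rin3 (0.0728). For H2-Ob they were Snx29 (0.0307), Etnk1 (0.0330), Mapre2 (0.0492), Zfp36l1 (0.0512) and Crtc2 (0.0518). Zfp36l1, an RNA-binding protein that promotes mRNA decay, was thus near both.

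For Ciita no gene was as close, and the nearest were AY036118 (0.140), Hvcn1 (0.141), Pml (0.143), Cd72 (0.151) and Lmo2 (0.156). Hvcn1 encodes a proton channel and Cd72 a B cell coreceptor of the marker list. Cd72 read 98.6, 136, 81.1, 106 and 126 from mouse 5 to mouse 1. It was high in mice 4 and 1, as Ciita was, and lower in mouse 5, unlike the mean of the B cell list. With 5 arrays such likeness is a description of these mice.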

How the data were processed

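The authors summarised each probe set with RMA (Affymetrix Power Tools is the software that the submitters' processing notes name) and deposited intensities on a linear scale. Their versions and the build are not stated in the sources used. They were transformed to log2 from the deposited intensities. Gene names came from GEO's platform annotation, which gives 21789 of 35556 probe sets 1 symbol and 1621 several; 12146 are unnamed here. Slopes on T2 and on the marker means were fitted in R 4.3.3 with limma 3.58.1 (lmFit, then eBayes; 3 residual degrees of freedom; two-sided), Benjamini-Hochberg adjusted over all genes tested. Intervals come from the moderated fit. Named genes were all members, pathway genes by counts with the 3 of largest moderated t in the T2 and B cell fits, core B cell and macrophage markers, and the 5 nearest profiles of 3 members; other genes of the lists were named after their values were seen. Members, lists and tests were chosen with earlier results of these data known. The fit was tested on simulated data with planted T2 slopes larger than those of any member. That test therefore does not cover slopes as small as the members had. The labels name separate mice, and arrays correlated between 0.980 and 0.989 across probe sets. Alternatives were other filters, normalizations, probe set means, variance models, weights, thresholds, ranks, covariates, core lists and each mouse left out.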

Additional observations from a re-analysis of the deposited data

Results flagged for a closer look

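Of 78 probe sets and list means examined, 7 had 1 mouse far from the other 4. The gap from that mouse to its nearest neighbour was above 0.710 of the whole range. For values without ties chance gives about 1 in 20, a rate that does not apply where arrays hold equal values. Nfyb read 79.5 in mice 4, 3, 2 and 1, and Rfxank read 87.3 in mice 4, 3 and 2. H2-Eb1 was lowest in mouse 2, at log2 10.32 against 10.63 to 10.73 in the others (gap share 0.756). Ctsh (0.870) and Ifi30 (0.719) were also lowest in mouse 2, at 8.17 and 9.56. Cd40 (0.882) was highest in mouse 1, at 7.18 against 6.88 to 6.91. Nfyc (0.819) was lowest in mouse 3, Rfxank (0.938) highest in mouse 1 and Nfyb (1.00) highest in mouse 5, with log2 values from 7.30 to 7.42, 6.45 to 6.48 and 6.31 to 6.36.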

How the results depend on the processing

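No member passed an adjusted threshold under any alternative run, including the threshold of 0.10. Adjusted p over the alternatives ran from 0.251 to 0.752 for Cd74 on the B cell mean and from 0.484 to 1 for H2-Eb1 on T2. No paired analysis was possible because the mice form 1 group. Genes called on T2, 0 in the main analysis, were 3 with a filter of 7, 4 with arrays quantile normalized again, 4 with array weights, 3 at the threshold of 0.10 and 35 without genes equal on 3 or more arrays, an alternative chosen after seeing the data. Genes called on the macrophage mean, 1 in the main analysis, were 0 with no filter, with trend and robust moderation, with the B cell mean as second covariate and without each mouse in turn (0 to 0). They were 4 with a filter of 7, 30 with arrays quantile normalized again, 5 with centred arrays, 6 with array weights, 5 at the threshold of 0.10, 5 with core markers and 33 without equal genes. The B cell mean called 0 under every alternative run.

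Some slopes turned sign, and not all of them were near 0. In the main analysis H2-Aa had 0.30 on the B cell mean and Ciita -0.20 on the macrophage mean. With array weights the T2 slopes of H2-DMa and Ciita were -0.0081 and -0.030, and the macrophage slopes of H2-DMa, H2-Oa and Ciita 0.063, 0.0061 and 0.19. On the rank of T2 those of H2-Aa, H2-Ab1 and Cd74 were 0.0085, 0.0087 and 0.0085 per rank, and with the B cell mean as covariate those of H2-Aa and Cd74 were 0.0010 and 0.00031. With the acinar covariate the B cell slopes of H2-Aa, H2-DMa and H2-Oa were -0.068, -0.031 and -0.037. Without each mouse in turn, T2 slopes ran from -0.019 to 0.026 for H2-DMa, -0.014 to 0.082 for Ciita, -0.038 to 0.025 for H2-Aa, -0.054 to 0.024 for H2-Ab1 and -0.083 to 0.022 for Cd74. B cell slopes ran from -0.015 to 0.11 for H2-Oa and stayed positive for the other 7 members, from 0.70 to 0.83 for Cd74. Macrophage slopes ran from -0.19 to 0.14 for H2-DMa, -0.10 to 0.012 for H2-Oa, -0.56 to 0.14 for Ciita, -0.18 to 0.27 for H2-Aa, -0.16 to 0.39 for H2-Ab1 and -0.21 to 0.52 for Cd74. The cause of these changes was not tested.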
